A study of Mus musculus with 6 samples.

Results

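Transport, storage and sensing genes of zinc, copper and magnesium were compared between the tips and the stalks of the mouse ureteric tree, the epithelium that branches into the collecting duct system of the kidney. The genes were taken by name: every symbol of the solute carrier families Slc30a, Slc31a, Slc39a and Slc41a, plus Mt1, Mt2, Mt3, Mtf1, Atp7a, Atp7b, Atox1, Trpm6, Trpm7, Cnnm2 and Cnnm4. The table named 40 such genes, and 38 of them had values, of 21456 gene symbols with values in all. Slc30a8 and Slc39a12 had question marks only, and the pseudogene symbol Slc39a1-ps was left out. Kidneys of CFW mice were taken at E16.5, a stage when branching is under way, and all cells carried a green Hoxb7 reporter, which marks the ureteric epithelium. The tip group was Wnt11RFP+;Hoxb7GFP+ and the stalk group was Wnt11RFP-;Hoxb7GFP+, with 3 mRNA libraries each. The stalk group is thus every green cell without the red Wnt11 reporter, and it can hold several cell types. The labels do not say whether the 3 libraries of a group are different animals, so the p-values reflect the spread among these libraries, which may be technical only.

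Cells keep free zinc and copper very low while many enzymes and transcription factors need them. Slc39 proteins (the ZIP family) carry zinc into the cytosol, Slc30 proteins (the ZnT family) carry it out of the cell or into vesicles, and metallothioneins bind what is left over. Copper enters through Slc31a1, is handed on by the chaperone Atox1 and is pumped into the Golgi or out of the cell by Atp7a and Atp7b. Magnesium crosses membranes through the Trpm6 and Trpm7 channels, Slc41 carriers and Cnnm proteins, and the kidney tubule sets how much of it the body keeps.

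Of the 38 genes, 29 had a mean of at least 1 RPKM (reads per length of transcript, scaled to library size) over the 6 libraries and were tested with limma on log2(RPKM + 1). All differences are given as tip minus stalk on that scale, which understates the change of low genes, and a gene was called at a Benjamini-Hochberg adjusted p under 0.05 over all 12532 genes tested. 10 of the 29 were called, against 48.6% of all genes tested. 5 were higher in tip (all genes: 26.1%): Slc39a6, Slc39a14, Slc39a10, Slc39a7 and Atp7a. The other 5 were higher in stalk (all genes: 22.5%): Slc41a3, Slc31a2, Slc30a4, Slc31a1 and Slc39a11. The called share of the metal genes was below that of all genes, and their median absolute log2 difference was 0.27, against 0.39 over all genes tested. The median signed difference was -0.07 for the metal genes and 0.05 for all genes. The libraries of tip and stalk did not overlap for 12 of the 29 genes, against 57.8% of all genes tested. A call with an absolute log2 difference of at least 1 was made for 5 of the 29, beside 17.1% of all genes tested. Tip library 2 and stalk library 1 stood apart from the others across many genes, as described with the metallothioneins. Without both, a choice made after earlier results had shown them apart, 6020 genes were called in all. Of the metal genes, 5 were then higher in tip and 8 in stalk. From the 10 calls, 8 remained, Slc39a7 and Slc39a11 were lost, and Mt1, Mt2, Cnnm4, Slc39a3 and Trpm7 were gained. In bulk libraries, fewer cells of a type and less RNA per cell cannot be told apart.

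**Figure D1:**
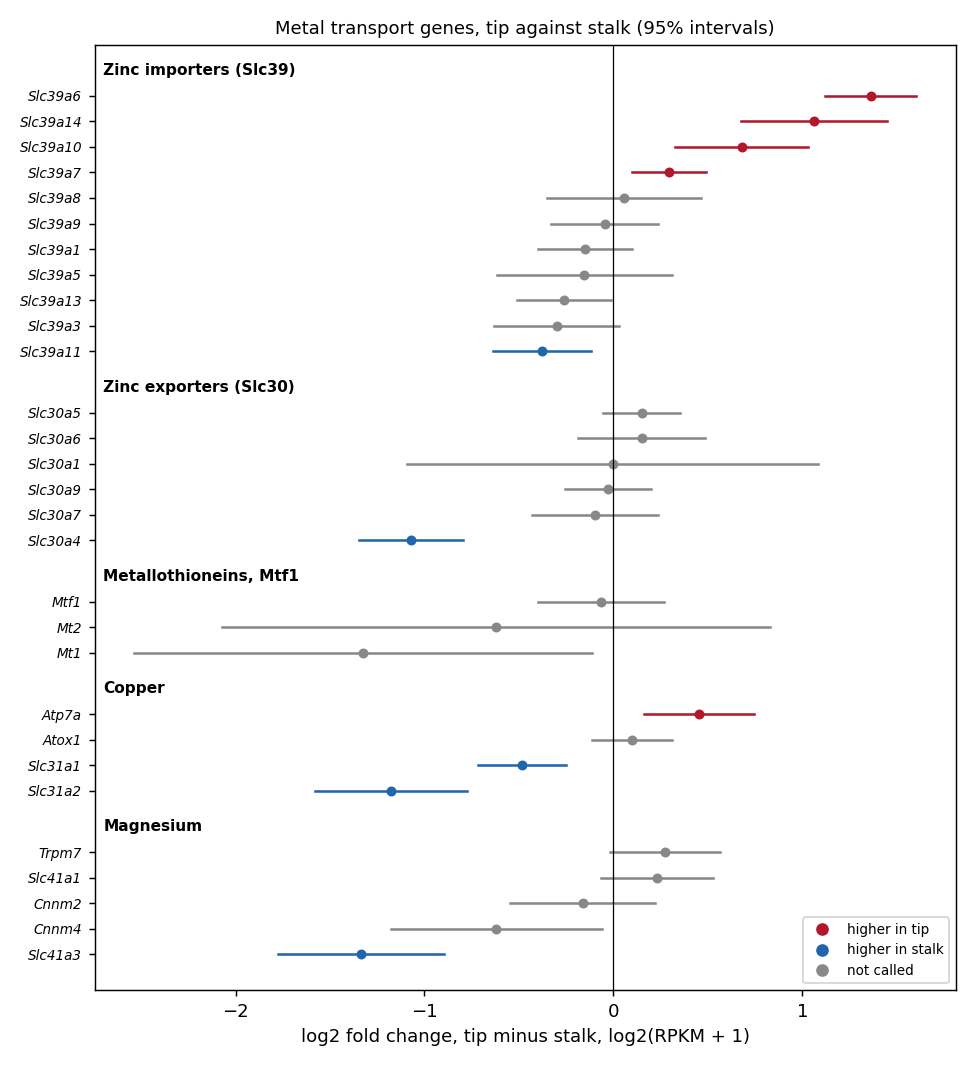
Difference in level, tip minus stalk, on the log2(RPKM + 1) scale (x axis) for the 29 tested genes, grouped by role (y axis). Points are limma estimates and bars are 95% intervals from 3 libraries each; Slc39a6 at 1.36 and Slc41a3 at -1.34 are the ends of the range, and the interval of Slc30a1 spans -1.09 to 1.09.

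Among the zinc importers, the tip had more mRNA of 4 Slc39 genes and the stalk more of 1. All 4 tip genes belong to the LIV-1 subfamily of Slc39. Of the 7 LIV-1 genes tested, 4 were higher in tip (all genes: 26.1%), none was called higher in stalk (all genes: 22.5%), and the median difference was 0.29. This subfamily is not a role group of its own, and it was counted with results of these data known. Its share is thus no test. Slc39a13, also of LIV-1, was higher in every stalk library than in any tip library but was not called (-0.26, adjusted p = 0.0796). Of all 11 importers tested, 4 were higher in tip and 1 in stalk, with a median of -0.05. Slc39a6 (ZIP6), a zinc importer of the cell surface, had 16.7, 16.3 and 15.98 RPKM in tip and 5.60, 5.52 and 6.12 RPKM in stalk. The groups were far apart and the libraries within each were close together. The tip level was 2.84 times the stalk level, with a log2 difference of 1.36 (SE 0.11, adjusted p = 3.02e-05). In mm10 the gene lies on the minus strand of chromosome 18 from 24579881 to 24603817. Slc39a14 (ZIP14), which carries iron and manganese as well as zinc, had 6.09, 5.06 and 5.64 RPKM in tip and 2.31, 1.59 and 2.65 RPKM in stalk. Every tip library was above every stalk library. Its tip level was 2.56 times the stalk level, with a log2 difference of 1.06 (SE 0.17, adjusted p = 0.00112). The gene lies on the minus strand of chromosome 14 from 70303469 to 70351425, and its value was summed over 13 table entries.

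Slc39a10 (ZIP10), the closest relative of Slc39a6 and its partner in a shared zinc transport complex, had 18.8, 13.6 and 17.9 RPKM in tip and 8.70, 11.4 and 10.0 RPKM in stalk. The groups did not overlap, and tip library 2 was the one nearest to the stalk. The difference was 0.68 on the log2 scale (SE 0.15, adjusted p = 0.00680), smaller than that of Slc39a6. Slc39a7 (ZIP7), which releases zinc from the endoplasmic reticulum and the Golgi into the cytosol, was the most abundant importer. It had 56.5, 57.1 and 58.6 RPKM in tip and 44.3, 49.0 and 46.7 RPKM in stalk. The groups did not overlap, but the step between them was small, at 0.29 on the log2 scale (SE 0.09, adjusted p = 0.0209). The call of Slc39a7 was lost in 6 of the alternatives tried. The gene lies on the minus strand of chromosome 17 from 34028269 to 34031682.

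Slc39a11 (ZIP11), a member of a separate branch of the family, was the importer higher in stalk, with 6.10, 5.56 and 6.25 RPKM in tip and 8.09, 7.92 and 8.12 RPKM in stalk. The groups did not overlap and the log2 difference was -0.38 (SE 0.11, adjusted p = 0.0237). The call of Slc39a11 was lost in 8 of the 14 alternatives tried, among them the removal of any single library other than stalk library 2 (adjusted p = 0.0508 to 0.0721). With the highest table entry of the symbol in place of the sum, the difference of Slc39a11 turned to 0.23 (adjusted p = 0.587), and that entry held 50.9% of the sum. Slc39a1 (ZIP1), a widely expressed surface importer, was the next most abundant, with 27.2, 34.5 and 30.9 RPKM in tip and 35.8, 33.3 and 33.8 RPKM in stalk. Tip library 2 lay within the stalk range, and the difference of -0.15 (SE 0.11, adjusted p = 0.278) was not called. Slc39a1 lies on chromosome 3 from 90248172 to 90253612. Slc39a13 (ZIP13), which serves the secretory pathway of connective tissue cells, averaged 7.57 ± 0.211 RPKM in tip and 9.27 ± 0.477 RPKM in stalk (SD, n = 3 each). Its groups did not overlap, yet it missed the threshold (difference -0.26, adjusted p = 0.0796). Slc39a3, Slc39a5, Slc39a8 and Slc39a9 were not called either, with differences between -0.30 for Slc39a3 and 0.05 for Slc39a8. Slc39a4, the importer of the intestine that is mutated in human acrodermatitis enteropathica, and Slc39a2 were under the minimum, with tip means of 0.173 and 0.202 RPKM and stalk means of 0.331 and 0.167 RPKM. Summed over the 13 importers, the level was 160.0 to 165.6 RPKM in the tip libraries and 136.2 to 144.9 RPKM in the stalk libraries, and Slc39a7 made up the largest share of it.

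**Figure D2:**
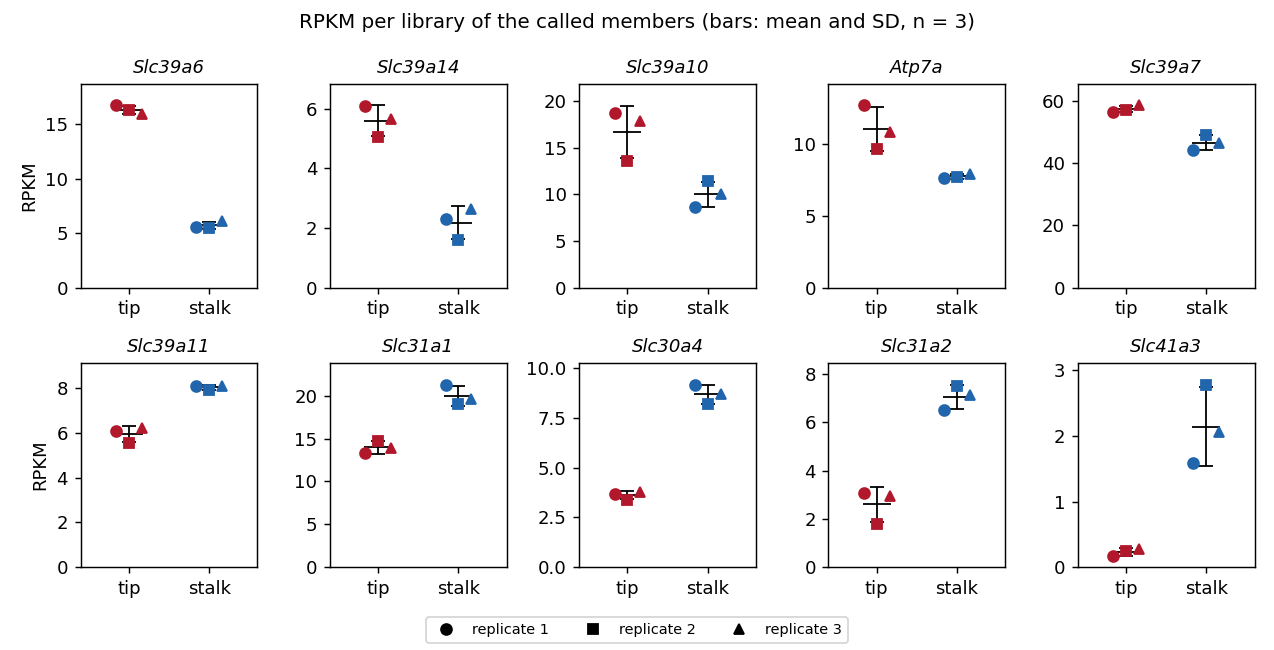
RPKM (y axis, from 0) of the 10 called genes in each of 3 tip and 3 stalk libraries, 1 panel a gene. Points are libraries and bars are the mean and SD. In all 10 panels the points of tip and stalk do not overlap (all genes tested: 57.8%), but the genes were drawn because they were called. The widest relative gap is in Slc41a3 (0.229 RPKM in tip, 2.14 RPKM in stalk), which passed the minimum only through its stalk level.

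Of the zinc exporters, 1 of 6 tested was called (all genes: 48.6%), and it was higher in stalk (all genes: 22.5%). Slc30a4 (ZnT4), which fills vesicles with zinc and is mutated in the mouse strain lethal milk, had 3.69, 3.38 and 3.76 RPKM in tip and 9.15, 8.21 and 8.70 RPKM in stalk. The groups were well apart, and the spread within each was small. The stalk level was 2.41 times the tip level, with a log2 difference of -1.07 (SE 0.12, adjusted p = 0.000180). The gene lies on the minus strand of chromosome 2 from 122681233 to 122702663.

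The abundant exporters of organelles were near level between tip and stalk. Slc30a9 (ZnT9), the zinc exporter of mitochondria, had 22.4, 22.0 and 24.0 RPKM in tip and 23.8, 24.7 and 21.5 RPKM in stalk. The groups overlapped, and the difference was -0.03 (SE 0.10, adjusted p = 0.823). The gene lies on the plus strand of chromosome 5 from 67306955 to 67358443. Slc30a5 (ZnT5), which loads zinc into the early secretory pathway, had 22.1, 22.7 and 21.6 RPKM in tip and 20.0, 19.9 and 19.7 RPKM in stalk. Every tip library was above every stalk library, but the difference of 0.15 (SE 0.09, adjusted p = 0.196) was not called. It lies on the minus strand of chromosome 13 from 100802648 to 100833427. Its partner Slc30a6 differed by 0.15 and Slc30a7, a Golgi exporter, by -0.10, and neither was called (adjusted p = 0.434 for Slc30a6 and 0.606 for Slc30a7). Slc30a2 (ZnT2), a vesicular exporter best known from the mammary gland, was under the minimum, with 0.965, 0.411 and 0.555 RPKM in tip and 0.0345, 0.155 and 0.0831 RPKM in stalk. All tip libraries were above all stalk libraries at these low levels. Slc30a3, which loads synaptic vesicles, and Slc30a10, a manganese exporter, were at or near 0 in all 6 libraries.

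Levels of 3 metal genes split the libraries within each group, as did those of many genes outside the metal set. Slc30a1 (ZnT1), the zinc exporter of the cell surface, had 5.73, 16.4 and 5.93 RPKM in tip and 17.4, 5.98 and 5.38 RPKM in stalk. Tip library 2 and stalk library 1 were high and the other 4 libraries were at about the same low level, so the groups overlapped fully. The fitted difference was -0.00 (SE 0.47, adjusted p = 0.995), with a 95% interval of -1.09 to 1.09 that leaves room for a change in either direction. Mt1 and Mt2 encode metallothioneins, small proteins that bind zinc and copper through their many cysteines. Mt1 had 18.3, 87.0 and 27.7 RPKM in tip and 150.6, 67.5 and 72.7 RPKM in stalk. Mt2 had 14.6, 82.1 and 25.7 RPKM in tip and 106.9, 32.7 and 33.9 RPKM in stalk. In both genes tip library 2 was the highest tip library, stalk library 1 was the highest stalk library, and the groups overlapped. Neither was called, at -1.32 (SE 0.53, adjusted p = 0.0687) for Mt1 and -0.62 (SE 0.63, adjusted p = 0.444) for Mt2. The 2 genes are close copies, and how the authors' counting split reads between them is not given in the sources used here. Their sum was 32.9, 169.1 and 53.4 RPKM in tip and 257.5, 100.1 and 106.6 RPKM in stalk. Mtf1, the zinc-sensing transcription factor that turns on metallothionein genes, had 4.64, 5.97 and 6.53 RPKM in tip and 5.65, 6.31 and 5.99 RPKM in stalk. Its groups overlapped, and neither library that was high in Mt1 was high in Mtf1 (difference -0.07, adjusted p = 0.729). Mt3, the metallothionein of the brain, had 0.338, 0.960 and 0.367 RPKM in tip and was listed at 0 in all 3 stalk libraries.

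**Figure D3:**
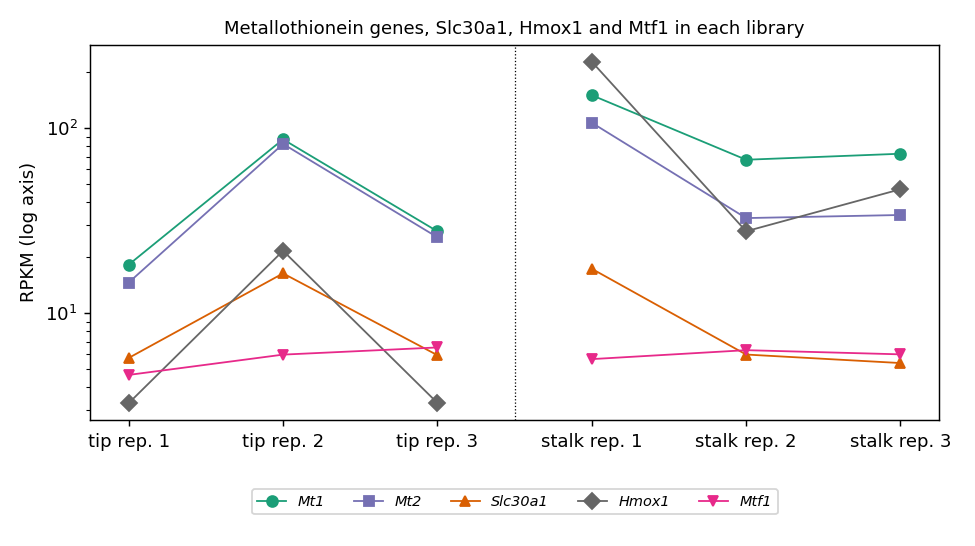
RPKM on a log axis (y) of Mt1, Mt2, Slc30a1, Hmox1 and Mtf1 in each library (x axis, 3 tip then 3 stalk). Tip library 2 and stalk library 1 are the highest of their groups for the first 4 genes (Mt1: 87.0 and 150.6 RPKM), while Mtf1 stays between 4.64 and 6.53 RPKM.

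Mtf1 is known to act on metal response elements at metallothionein promoters and at Slc30a1. The promoters of Mt1, Mt2 and Slc30a1 are shown for that reason, and because these are the 3 metal genes whose level followed single libraries. Each runs 5′ to 3′ on the plus strand, from 250 bases before to 50 bases after the RefSeq start (GRCm38.p6). Capitals mark the core of the metal response element, searched as TGCACNC or TGCGCNC on either strand. The windows are chr8:94178839-94179138 for Mt1, chr8:94172368-94172667 for Mt2 and chr1:191906531-191906830 for Slc30a1.
Mt1: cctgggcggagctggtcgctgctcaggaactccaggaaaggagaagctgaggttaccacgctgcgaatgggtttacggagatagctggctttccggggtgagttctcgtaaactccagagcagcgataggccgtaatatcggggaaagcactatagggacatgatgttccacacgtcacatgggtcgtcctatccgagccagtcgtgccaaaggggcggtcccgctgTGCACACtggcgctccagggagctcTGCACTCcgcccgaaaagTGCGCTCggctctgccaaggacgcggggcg
Mt2: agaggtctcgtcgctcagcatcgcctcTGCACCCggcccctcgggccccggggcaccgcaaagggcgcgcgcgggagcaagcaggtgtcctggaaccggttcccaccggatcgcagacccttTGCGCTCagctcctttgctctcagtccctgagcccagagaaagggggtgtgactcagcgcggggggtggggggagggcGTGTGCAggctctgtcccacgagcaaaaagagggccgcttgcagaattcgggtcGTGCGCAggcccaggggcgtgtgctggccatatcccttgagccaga
Slc30a1: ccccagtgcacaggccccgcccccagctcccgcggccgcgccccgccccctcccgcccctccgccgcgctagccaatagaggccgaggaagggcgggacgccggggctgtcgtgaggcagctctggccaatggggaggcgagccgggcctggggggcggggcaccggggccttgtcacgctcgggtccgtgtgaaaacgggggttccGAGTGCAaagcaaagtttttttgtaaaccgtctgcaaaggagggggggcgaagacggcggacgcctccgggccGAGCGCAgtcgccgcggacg
Mt2 held 4 matches, Mt1 held 3 and Slc30a1 held 2. Of all 32851 promoter windows of this length, 25.7% held at least 1 match, 7.11% at least 2, 1.97% at least 3 and 0.517% at least 4. A window was found for 35 of the 38 genes, some of them with more than 1, and 22 of their 40 windows held a match. Slc30a4 and Slc30a10 also held 3 matches, where 2 of those in Slc30a10 are overlapping words on opposite strands. Mtf1, Slc39a10, Slc39a7, Slc39a1, Slc30a9 and Trpm7 were among the genes that held none. Slc39a6, Slc39a14 and Slc39a4 had no window and were not searched. A match describes the letters only, and it is not a binding site. The annotation gives Mt1 a second start at 94179211, and the 300 bases before that start held 5 matches. Of all promoter windows, 0.143% held at least 5. The stretch before the second start overlaps the Mt1 window and includes its 3 matches. That stretch was looked at after the windows were seen.

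Tip library 2 was above the higher of the other tip libraries by 3.14 times in Mt1, 3.20 times in Mt2 and 2.77 times in Slc30a1. Stalk library 1 was above the higher of the other stalk libraries by 2.07 times in Mt1, 3.15 times in Mt2 and 2.91 times in Slc30a1. A 2-fold excess in both libraries was seen in these 3 of the 29 metal genes and in 75 of all 12532 genes tested, or 0.598%. The 2 libraries were picked with earlier results of these data known, so these counts are no test. Several of the 75 outside the metal set had larger ratios. Chac1 was at 20.7 times in tip library 2 and 9.54 times in stalk library 1. Trib3 was at 8.92 and 7.38 times, Ankrd1 at 6.06 and 5.04 times and Vcl at 4.73 and 5.09 times. Among the metal genes, Cnnm4, a magnesium transport protein, came next, at 1.61 times in tip library 2 and 1.56 times in stalk library 1. Among the other tested metal genes the highest ratio was 1.25 times, for Trpm7 in stalk library 1. Hmox1, the heme oxygenase gene that responds to metals and oxidants, had 3.27, 21.7 and 3.28 RPKM in tip and 228.4, 27.7 and 46.7 RPKM in stalk. It was thus high in the same libraries, by 6.64 times in tip library 2 and 4.89 times in stalk library 1. Without these 2 libraries, Mt1 averaged 23.0 RPKM in tip and 70.1 RPKM in stalk (log2 difference -1.59, adjusted p = 0.000463). Mt2 then averaged 20.2 RPKM in tip and 33.3 RPKM in stalk (-0.75, adjusted p = 0.0319), and Slc30a1 averaged 5.83 RPKM in tip and 5.68 RPKM in stalk (0.03, adjusted p = 0.867). Leaving out these libraries was chosen after earlier results had shown them apart, so those adjusted p-values describe the remaining 4 libraries only.

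The 2 libraries also stood apart across all genes, on a second principal component (9.21% of the variance) at -20.5 for tip library 2 and -25.0 for stalk library 1, with the others between 7.72 and 18.5. The summed level of 16 early response and heat shock genes was lowest of its group in both, at 3295 RPKM in tip library 2 (other tip libraries 3444 and 4442) and 4556 RPKM in stalk library 1 (other stalk libraries 7216 and 6623). Single genes of the list went either way. Fos, Fosb, Jun, Junb, Egr1, Ier2 and Dusp1 were lowest of their group in both libraries, and Atf3, Hspb1 and Hspa1b were highest in both. The rest were neither. The heat shock gene Hspa1b was 3.47 times the higher of the other tip libraries in tip library 2, but 1.15 times the higher of the other stalk libraries in stalk library 1. The part of cell handling in the metallothionein levels was not tested.

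**Figure D4:**
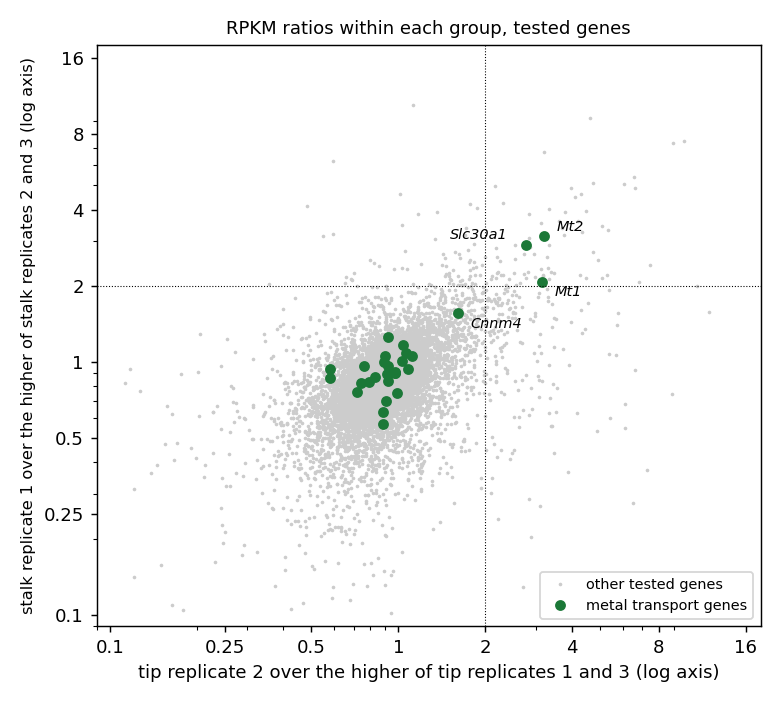
Level in tip library 2 over the higher of the other tip libraries (x, log axis) against level in stalk library 1 over the higher of the other stalk libraries (y, log axis), for tested genes. Dotted lines mark 2-fold; Mt1 (3.14 and 2.07), Mt2 (3.20 and 3.15) and Slc30a1 (2.77 and 2.91) are the metal genes past both, and 78 genes outside 0.1 to 16 or without a ratio are not drawn.

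Of the 4 copper genes tested, 3 were called (all genes: 48.6%). Slc31a1 and Slc31a2 were higher in stalk, and the pump gene Atp7a was higher in tip. Slc31a1 (CTR1), the main copper importer of the cell surface, had 13.3, 14.8 and 13.9 RPKM in tip and 21.2, 19.0 and 19.6 RPKM in stalk. The groups did not overlap, and the stalk level was 1.43 times the tip level (log2 difference -0.48, SE 0.10, adjusted p = 0.00465). Slc31a2 (CTR2), its relative on endosomes and lysosomes, lies close to it on the plus strand of chromosome 4, from 62262562 to 62298411, with Slc31a1 from 62360727 to 62391769. Slc31a2 had 3.08, 1.78 and 2.95 RPKM in tip and 6.51, 7.503 and 7.11 RPKM in stalk. Every stalk library was above 2 times the highest tip library, and the difference was -1.18 (SE 0.18, adjusted p = 0.000829). Atp7a, the copper pump that is mutated in human Menkes disease, had 12.7, 9.63 and 10.8 RPKM in tip and 7.65, 7.69 and 7.95 RPKM in stalk. The groups did not overlap, and the difference was 0.45 (SE 0.13, adjusted p = 0.0179). That call was lost with the highest table entry in place of the sum (adjusted p = 0.162) and without tip library 1 (0.0772) or tip library 3 (0.0512).

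Atox1, the chaperone that hands copper to the pumps, was the most abundant of all the metal genes. It had 111.0, 129.7 and 120.2 RPKM in tip and 107.7, 114.9 and 114.3 RPKM in stalk. The groups overlapped, and the difference of 0.10 (SE 0.09, adjusted p = 0.418) was not called. Atox1 lies on the minus strand of chromosome 11 from 55446641 to 55461239. Atp7b, the pump mutated in human Wilson disease, was under the minimum and averaged 0.286 ± 0.0816 RPKM in tip and 0.4001 ± 0.0692 RPKM in stalk (SD, n = 3 each). Summed over the 5 copper genes, the level was 140.3 to 156.1 RPKM in tip and 143.6 to 149.4 RPKM in stalk, most of it Atox1.

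Of the 5 magnesium genes tested, 1 was called (all genes: 48.6%), and it was higher in stalk (all genes: 22.5%). Slc41a3, a carrier reported to move magnesium out of mitochondria, had 0.164, 0.246 and 0.278 RPKM in tip and 1.58, 2.78 and 2.05 RPKM in stalk. The tip libraries were all close to the bottom of the scale, and the stalk level was 9.32 times as high by the ratio of means. The difference was -1.34 (SE 0.19, adjusted p = 0.000660), and the gene passed the minimum only through its stalk level. Without stalk library 2 its mean was under the minimum and it was not tested. It lies on the plus strand of chromosome 6 from 90604725 to 90646412.

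The more abundant magnesium genes were not called. Trpm7, a channel fused to a kinase that passes magnesium, calcium and zinc, had 14.4, 13.3 and 13.0 RPKM in tip and 13.0, 9.92 and 10.4 RPKM in stalk. Stalk library 1 lay just above the lowest tip library, and the difference was 0.27 (SE 0.13, adjusted p = 0.112). Trpm7 lies on the minus strand of chromosome 2 from 126791565 to 126876230. Slc41a1, a magnesium carrier of the cell surface, had 9.63, 10.1 and 10.2 RPKM in tip and 7.43, 9.85 and 7.96 RPKM in stalk. Stalk library 2 lay within the tip range, and the difference was 0.23 (SE 0.13, adjusted p = 0.172). Slc41a1 lies on the plus strand of chromosome 1 from 131827493 to 131848865. Cnnm4 had 3.74, 6.61 and 4.09 RPKM in tip and 10.9, 6.05 and 6.97 RPKM in stalk. Tip library 2 lay within the stalk range, and the difference of -0.62 was not called (adjusted p = 0.0649). Cnnm2, the basolateral magnesium protein of the distal tubule, differed by -0.16 (adjusted p = 0.450). With the highest table entry in place of the sum, Cnnm2 differed by -0.81 (adjusted p = 0.00392).

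Both remaining magnesium genes were under the minimum and higher in every tip library than in any stalk library. Slc41a2 had 0.685, 1.26 and 0.862 RPKM in tip and 0.112, 0.107 and 0.393 RPKM in stalk. Trpm6, the magnesium channel of the distal convoluted tubule, had 0.640, 0.485 and 0.331 RPKM in tip and 0.0179, 0.0722 and 0.0657 RPKM in stalk. With no minimum mean, 28.5% of 21456 genes were called. Of the 9 metal genes under the minimum, 4 were then called, all higher in tip: Trpm6 (0.49, adjusted p = 0.00860), Slc41a2 (0.68, adjusted p = 0.0213), Slc30a2 (0.58, adjusted p = 0.0242) and Mt3 (0.61, adjusted p = 0.0335). Atp7b, Slc30a3, Slc30a10, Slc39a2 and Slc39a4 were not called. The 28.5% includes the genes above the minimum. Neither the share among genes under the minimum nor the share higher in tip was computed for this setting.

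Other genes of each metal's biology were read from lists of partner genes. The 6 zinc partners tested were all called higher in stalk (all genes: 22.5%), with a median of -1.49. Zfp658, Alpl and Mcoln2 were under the minimum and not tested, and their tip means of 0.870, 0.662 and 0.382 RPKM were above their stalk means of 0.696, 0.473 and 0.155 RPKM, with overlapping libraries. Tmem163, a zinc exporter of vesicles, averaged 0.110 ± 0.0864 RPKM in tip and 6.96 ± 1.45 RPKM in stalk (SD, n = 3 each; log2 difference -2.83, adjusted p = 1.48e-05). It was close to absent in tip and passed the minimum only through its stalk level. Gpr39, a receptor that senses zinc outside the cell, averaged 3.83 ± 1.59 RPKM in tip and 13.3 ± 1.42 RPKM in stalk (-1.61, adjusted p = 0.000585). Gclc, which makes the glutathione precursor, averaged 26.3 ± 1.27 RPKM in tip and 69.6 ± 6.48 RPKM in stalk (-1.37, adjusted p = 2.57e-05). Hmox1 was called at -3.19 (SE 0.85, adjusted p = 0.0143), a call lost without tip library 1 (0.0531), without tip library 3 (0.0522) and with no minimum mean (0.0716). Without tip library 2 and stalk library 1, Hmox1 averaged 3.27 RPKM in tip and 37.2 RPKM in stalk (-3.12, adjusted p = 7.53e-05). The endosomal channels Mcoln1 and Mcoln3 were the other zinc partners higher in stalk.

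Of 16 copper partners tested, 3 were called higher in tip (all genes: 26.1%) and 3 in stalk (all genes: 22.5%), with a median of -0.05. The stalk count was 1 without tip library 1, tip library 2, stalk library 2 or stalk library 3 and with no minimum mean, and 5 without stalk library 1. The tip count was 0 with a minimum mean of 5 RPKM. The 3 tip genes are lysyl oxidases, copper enzymes that cross-link collagen and elastin. Loxl2 averaged 4.91 ± 1.18 RPKM in tip and 1.32 ± 0.435 RPKM in stalk (1.34, adjusted p = 0.00102). Loxl1 averaged 3.75 ± 0.275 RPKM in tip and 0.871 ± 0.124 RPKM in stalk (1.34, adjusted p = 0.000163). Loxl3 averaged 2.06 ± 0.359 RPKM in tip and 0.243 ± 0.104 RPKM in stalk (1.30, adjusted p = 0.000477). Loxl1 and Loxl3 passed the minimum only through their tip level, and Loxl3 was not tested without tip library 1 or tip library 3. Atp7a is known to load copper onto lysyl oxidases in the Golgi, and a link between its level and theirs was not tested. Cox17, which carries copper to cytochrome oxidase, averaged 32.3 ± 5.79 RPKM in tip and 54.5 ± 0.0414 RPKM in stalk (-0.75, adjusted p = 0.00182). Ccs, the chaperone of superoxide dismutase (-0.45, adjusted p = 0.0370), and Pam, a peptide-amidating copper enzyme (-0.66, adjusted p = 0.0406), were also higher in stalk.

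Of 18 magnesium partners tested, 3 were called higher in tip (all genes: 26.1%) and 8 in stalk (all genes: 22.5%), with a median of -0.11. The stalk count was 4 without tip library 1 and 5 with no minimum mean. Nipal1, a magnesium carrier, averaged 1.57 ± 2.0 RPKM in tip and 13.5 ± 7.89 RPKM in stalk (-2.64, adjusted p = 0.00360), and it too was highest in tip library 2 and stalk library 1. Without both libraries the difference of Nipal1 was -2.82 (adjusted p = 5.30e-05). Cnnm1, a relative of Cnnm2 and Cnnm4, averaged 0.0447 ± 0.0456 RPKM in tip and 3.44 ± 1.61 RPKM in stalk (-2.01, adjusted p = 0.000596), and it passed the minimum only through its stalk level. Nipal3 averaged 7.07 ± 0.835 RPKM in tip and 15.8 ± 1.14 RPKM in stalk (-1.06, adjusted p = 0.000230). Fxyd2, a subunit of the sodium pump that is mutated in a human magnesium-losing disorder, differed by -1.75 (adjusted p = 0.0446) and lost its call in 8 of the alternatives tried. Cldn19, Mmgt1 and Tusc3 were the partners higher in tip, by 0.69, 0.57 and 0.36 on the log2 scale.

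**Figure D5:**
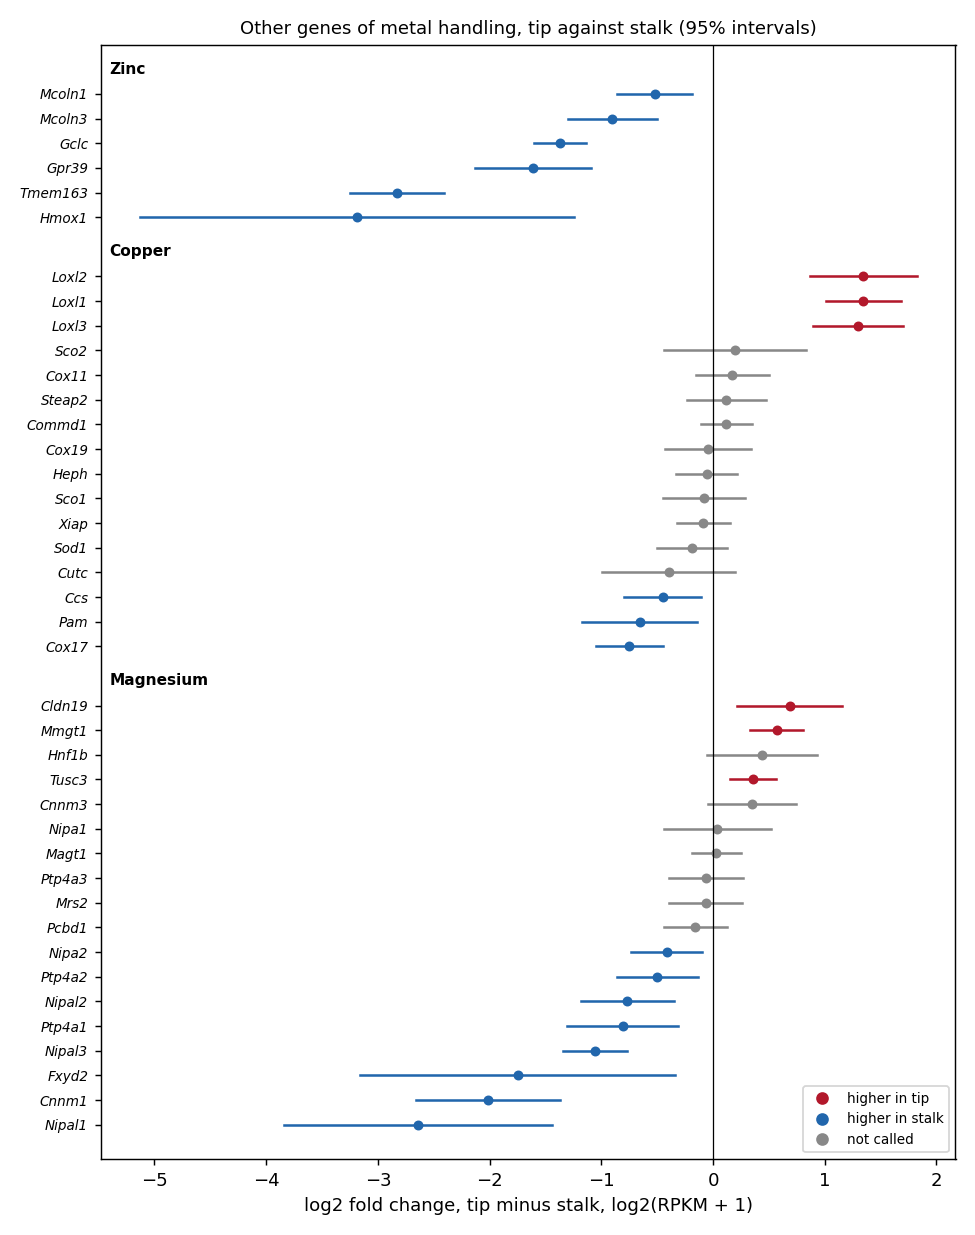
Difference in level, tip minus stalk, on the log2(RPKM + 1) scale (x axis) for the 40 tested partner genes of zinc, copper and magnesium (y axis). Points are limma estimates with 95% intervals; all 6 zinc partners are below 0, and Loxl1, Loxl2 and Loxl3 are the copper partners above 1.

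The labels were checked on marker genes. Beside the counts below, 26.1% of all genes tested were called higher in tip and 22.5% in stalk. Wnt11 had 929.5, 423.1 and 725.9 RPKM in tip and 1.92, 8.67 and 24.5 RPKM in stalk, and 6 of 7 tip markers were higher in tip and 1 in stalk. The ureteric markers Hoxb7, Calb1, Gata3, Cdh1 and Epcam were present in all 6 libraries, and their list had 3 genes higher in tip and 2 in stalk of 7 tested. Principal cell markers (9 of 9 tested higher in stalk) summed to 40.7 to 77.1 RPKM in tip and 960.2 to 1350 RPKM in stalk. Intercalated cell markers (7 of 7) summed to 2.70 to 4.69 RPKM in tip and 292.4 to 477.9 RPKM in stalk. Urothelial markers (7 of 8) summed to 3.49 to 4.59 RPKM in tip and 245.6 to 538.8 RPKM in stalk, with Upk2 at 0 in all tip libraries. Endothelial markers (9 of 9) summed to 6.60 to 9.85 RPKM in tip and 47.2 to 81.5 RPKM in stalk. The early response and heat shock genes were higher in stalk for 9 of 16 and in tip for 1. Nephron progenitor markers were higher in tip for 2 of 2 tested (Cited1 and Crym), and the whole list summed to 3.96 to 6.50 RPKM in tip and 1.77 to 2.91 RPKM in stalk. Of its genes under the minimum, Six2 had the higher mean in tip, and Osr1, Meox1 and Eya1 had the higher mean in stalk. Osr1 averaged 0.0455 RPKM in tip and 0.535 RPKM in stalk, without overlap. Immune markers were called once in each direction among 3 tested. Stromal (3 tested), proximal tubule (1), loop and distal tubule (1), podocyte (4) and erythroid markers (2) had no call at this threshold. The part of these cell types in the levels of the metal genes was not tested.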

How the data were processed

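Per the labels' protocols, RNA of 3 tip and 3 stalk samples was extracted with an RNeasy micro kit (Qiagen) and sequenced as Kapa stranded mRNA libraries. The values were RPKM computed by the authors. Per the submitters' processing notes, the build was mm10 and the tools were TopHat2, Partek and bcl2fastq 2.17. The sources used here do not give the annotation, the counting settings or the use of strand. The deposited table had 93615 entries in 6 value columns, of which 24545 held question marks and were dropped. Values were summed over the entries of each symbol, since 27 of the 38 metal genes had more than 1 entry (at most 13). Read depth is unknown, so no counting interval is given. The sums of RPKM per library were 345123 to 366035.

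Genes averaging 1 RPKM or more were tested with limma 3.58.1 in R 4.3.3 (trend in the prior variance) on log2(RPKM + 1), two-sided, without covariates. The script was tested on simulated data. Gene positions are from GENCODE on mm10, and promoter windows are from RefSeq. Genes given in full were those called with an absolute log2 difference of at least 1 and the 2 most abundant of each role. Up to 4 genes per partner list are named with values for both groups. The genes, lists and tests were chosen with earlier results of these data known. Alternatives were the pseudocount (0.1), the minimum mean (none, 5), median ratio scaling, the highest entry of a symbol, no variance trend, a replicate block and leaving out libraries.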

Additional observations from a re-analysis of the deposited data

How the results depend on the processing

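The number of genes called was 4642 to 6152 over all alternatives, within 1.5 times the 6089 reported. Slc39a6, Slc39a14, Slc39a10, Slc30a4, Slc31a1, Slc31a2 and Slc41a3 kept their call and direction wherever they were tested. Metal genes higher in tip numbered 9 with no minimum mean and 3 with the highest entry of each symbol, against 5 reported. Those higher in stalk numbered 3 with a minimum mean of 5 RPKM and 8 without tip replicate 2 and stalk replicate 1, against 5 reported. Leaving out 1 library at a time gave 3 to 6 higher in tip, 4 to 6 higher in stalk and 4767 to 5853 genes called. Without tip replicate 1 or tip replicate 3, 3 were higher in tip. Without tip replicate 2, Mt1 was called (-1.96, adjusted p = 0.00263).

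With a replicate block, 5096 genes were called, with 4 metal genes higher in tip and 4 in stalk, since Slc39a7 (adjusted p = 0.0715) and Slc39a11 (0.0741) lost their calls. Libraries of the same number deviated with correlations of -0.303, -0.335 and 0.093, and no library correlated best with its own number. The highest correlations were 0.559 for tip library 2 with stalk library 1, 0.397 for tip 3 with stalk 2 and 0.334 for tip 1 with stalk 3. The labels give no pairing, and these correlations cannot tell whether a tip and a stalk library came from the same kidneys.

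Apart from Slc39a11, signs turned only in genes not called. With the highest entry of each symbol, the log2 difference was 0.014 for Slc30a9, 0.25 for Slc39a3, 0.23 for Slc39a11 and -0.039 for Slc39a8. Leaving out 1 library gave -0.45 to 0.48 for Slc30a1, -0.029 to 0.19 for Slc39a8, -0.15 to 0.054 for Mtf1, -0.086 to 0.011 for Slc30a9 and -0.12 to 0.051 for Slc39a9. Without tip replicate 2 and stalk replicate 1, Slc30a9 was at 0.01 and Slc30a1 at 0.03. The cause was not tested. At 1.5-fold, chosen after seeing the data, 238 genes were high in both libraries, 4 of them metal genes. Median ratio scaling moved the median difference by -0.05 and the share of calls higher in tip to 48.9%, against 53.8%, and it called Slc39a13 (adjusted p = 0.0357).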
